A study of Homo sapiens with 7 samples.

Results

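Gene expression of the nuclear lamins and of the inner nuclear envelope proteins was examined in human dermal fibroblasts that are labelled as overexpressing prelamin A or progerin. The set held 10 genes of the 12726 genes tested: the lamin genes LMNA, LMNB1 and LMNB2, the inner membrane and LEM domain genes LBR, EMD and TMPO, and the genes SUN1, SUN2, SYNE1 and SYNE2 of the bridge across the envelope. They were chosen by name for their place in the nuclear envelope, and every probe set that the platform annotation gave to only 1 of these genes was taken, which came to 30 probe sets of the 41091 with 1 gene. Each gene was represented by its brightest probe set on average. All 10 genes and 22 of the 30 probe sets reached 100 units on 1 or more arrays.

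Total RNA of 1 fibroblast strain from a healthy donor was taken at passage 10 and hybridised to 7 Affymetrix arrays. There was 1 array each of cells labelled with prelamin A and FTI, prelamin A and ZMPSTE24, prelamin A, progerin and FTI, and progerin, and there were 2 arrays of control fibroblasts. FTI stands for the farnesyltransferase inhibitor L-744832, given at 10 nM for 48 h, and the array of prelamin A and ZMPSTE24 is labelled as overexpressing both. Overexpression of ZMPSTE24 or prelamin A was not seen at the brightest ZMPSTE24 probe set or the 4 bright LMNA probe sets. The ZMPSTE24 signal was 5779 units on that array, against 6119.5 units on the prelamin A array. No prelamin A array was above both controls at the 4 bright LMNA probe sets. At the 2 dim LMNA probe sets the arrays of prelamin A and of prelamin A and FTI were above both controls, and that of prelamin A and ZMPSTE24 was not. Probe positions were not checked against the introduced sequences, so these signals cannot test the labels. Arrays are therefore named by their labels throughout, and the directions below rest on those labels. One array's title mentions FTI without prelamin A, but its source and treatment labels mention both, and it was placed with prelamin A and FTI. According to the methods progerin and prelamin A were cloned into a lentiviral vector with a CMV promoter and a flag tag. Transduced cells that expressed GFP were sorted, and a vector with GFP is described for FOXQ1. For ZMPSTE24 overexpression the methods refer to earlier work, and they do not say which vector the cells on the arrays carried. The methods also describe a further fibroblast strain and duplicate cultures of each, while the labels give the same strain for all 7 arrays and no culture. The labels do not say whether the control cells received an empty virus, nor whether the control arrays came from separate cultures, and p-values therefore reflect array-to-array spread that could be purely technical. Each value below is the signal of MAS 5.0, an intensity in arbitrary units after scaling of each array, and differences and folds are on the scale of log2(signal + 16), which understates the change of dim genes. In bulk RNA, fewer cells of a kind and less RNA per cell cannot be told apart.

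The nuclear lamina is a meshwork of A-type and B-type lamins under the inner nuclear membrane. Lamin A is made as prelamin A, which is farnesylated at its end and then cleaved by the protease ZMPSTE24, while progerin lacks the cleavage site and keeps its farnesyl group. The lamina holds LBR, emerin and the lamina-associated polypeptides of TMPO at the membrane, and SUN and nesprin proteins join it to the cytoskeleton through the LINC complex.

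The cells had the profile of fibroblasts, since all 11 fibroblast markers were over 100 units on all 7 arrays. KRT5 and KRT14, which define basal keratinocytes, stayed under 13 units. Another keratin on that list, KRT10, was between 4980 and 10671 units on all 7 arrays and highest on the controls, and none of the 4 melanocyte markers on the array reached 100 units. The median signal was between 64.9 and 77.0 units on the 7 arrays. The ACTB 3'/5' ratio, a measure of RNA integrity, was 1.26, 1.50 and 1.62 on the arrays with prelamin A and FTI, prelamin A and ZMPSTE24, and prelamin A, against 1.12 and 1.17 on the arrays with progerin and FTI and with progerin, and 1.24 and 1.06 on the control arrays. It was thus higher on every prelamin A array than on the other 4 arrays. The GAPDH 3'/5' ratio did not run the same way, at 0.902, 0.892 and 0.861 on the prelamin A arrays, against 0.925 and 0.928 on the progerin arrays, and 0.879 and 0.943 on the controls. The summed signal of 25 cell cycle genes was 31133, 34956 and 26961 units on these prelamin A arrays, against 42614 and 45881 units on the progerin arrays, and 40772 and 30138 units on the controls. The lists of markers of other cells did not all run one way. The 5 keratinocyte markers on the array, of which KRT10 alone was over 100 units, summed to 6371, 6580.4 and 5719 units on the prelamin A arrays and 5075 and 5714 units on the progerin arrays, against 10765 and 7595 units on the controls. The 5 markers of embryonic kidney packaging cells on the array, in which lentivirus is made, summed to 991, 762 and 749.9 units on the prelamin A arrays and 675 and 486 units on the progerin arrays, against 176 and 134 units on the controls, with 4 of them over 100 units on some array and 0 on all. Of these INA was between 270.0 and 545 units on the transduced arrays, and at 12.8 and 5.20 units on the controls, while PAX2 and LIN28B overlapped between transduced and control arrays. The endothelial and leukocyte lists, each with 2 genes over 100 units on some array and 0 on all, summed to 311 to 652 units on the transduced arrays, against 137 to 247 units on the controls, with TEK and CD14 the brightest, while PECAM1, CD3E and PTPRC overlapped with the controls. The part of RNA integrity, of the cell cycle genes and of these markers in the results below was not tested.

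Promoters of 9 of the 10 genes were found in RefSeq (GRCh38.p14), from 250 bases before to 50 bases after the start. Every prelamin A array was below both progerin arrays for LMNA, LMNB1, LMNB2, EMD, SUN1, SUN2, SYNE2 and TMPO. Of these genes, the promoters of LMNA, LMNB1 and TMPO are shown as examples. They lie at chr1:156082323-156082622, chr5:126776373-126776672 and chr12:98515323-98515622, all on the plus strand, at the 5' ends of genes that run over chr1:156082573-156140081, chr5:126776623-126837020 and chr12:98515573-98550351. The sequences run 5' to 3', and capitals mark matches to the CCAAT box (CCAAT or ATTGG) and to E2F (TTTCGCGC, TTTGGCGC or TTTCCCGC), each searched on both strands.
LMNA: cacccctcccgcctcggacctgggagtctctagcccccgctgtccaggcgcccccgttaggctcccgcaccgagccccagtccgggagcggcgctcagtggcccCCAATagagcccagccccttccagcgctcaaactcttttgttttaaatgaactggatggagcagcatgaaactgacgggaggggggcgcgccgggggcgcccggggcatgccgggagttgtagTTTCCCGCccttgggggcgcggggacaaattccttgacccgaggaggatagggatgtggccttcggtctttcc
LMNB1: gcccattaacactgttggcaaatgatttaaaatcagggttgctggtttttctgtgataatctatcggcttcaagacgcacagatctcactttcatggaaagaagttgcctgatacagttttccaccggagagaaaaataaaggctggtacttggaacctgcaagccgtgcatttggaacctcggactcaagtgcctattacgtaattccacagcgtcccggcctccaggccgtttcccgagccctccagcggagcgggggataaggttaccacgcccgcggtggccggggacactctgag
TMPO: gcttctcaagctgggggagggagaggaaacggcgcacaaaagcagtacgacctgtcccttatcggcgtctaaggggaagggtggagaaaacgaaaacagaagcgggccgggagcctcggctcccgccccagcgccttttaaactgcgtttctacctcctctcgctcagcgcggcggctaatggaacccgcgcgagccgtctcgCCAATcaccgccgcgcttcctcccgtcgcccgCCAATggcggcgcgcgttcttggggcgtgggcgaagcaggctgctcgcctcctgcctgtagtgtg
The LMNA promoter held 1 CCAAT box at -146 and 1 E2F match at -23, which overlapped a GC box (GGGCGG on either strand) at -19. The TMPO promoter held CCAAT boxes at -47 and -15 and a GC box at -128. The LMNB1 window held none of these motifs and no cell cycle element CHR (TTTGAA, or TTCGAA as its other form). A CCAAT box was found in 4 of the 9 promoters and in 34.6% of 35116 promoters of the same length, a GC box in 6 of 9 and in 45.0%, an E2F match in 1 of 9 and in 2.74%, and CHR in 2 of 9 and in 16.4%. A match describes the letters and is not a shown binding site. Only 1 start was searched for each gene, and whether these cells use that start was not checked.

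The 10 genes fell mostly into one pattern, in which the 3 prelamin A arrays were lower than the 2 progerin arrays. Against the controls the pattern was less even. All 3 prelamin A arrays were below both controls for LMNB1, LMNB2, LBR, EMD, SUN2 and TMPO, as in 22.7% of all genes. This did not hold for LMNA, SUN1, SYNE1 and SYNE2. All 10 genes averaged lower on the prelamin A arrays than on the progerin arrays, with a median log2 difference of -0.79 over the 10 genes and of -0.02 over all genes tested. In 8 of the 10 genes every prelamin A array was below both progerin arrays, which held for 24% of all genes, and no member showed the opposite, which held for 21.4%. The exceptions were LBR and SYNE1. In a limma model of 3 lines (the prelamin A line with its 3 arrays, the progerin line with its 2 and the controls), 0 of 12726 genes reached an adjusted p under 0.05 in this comparison, which is 0% of genes, so none of these differences is called. At an unadjusted p under 0.05, 7 members were lower and 0 higher, against 10.5% and 8.57% of all genes. Without the progerin array, 4 members were lower at that p.

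**Figure D1:**
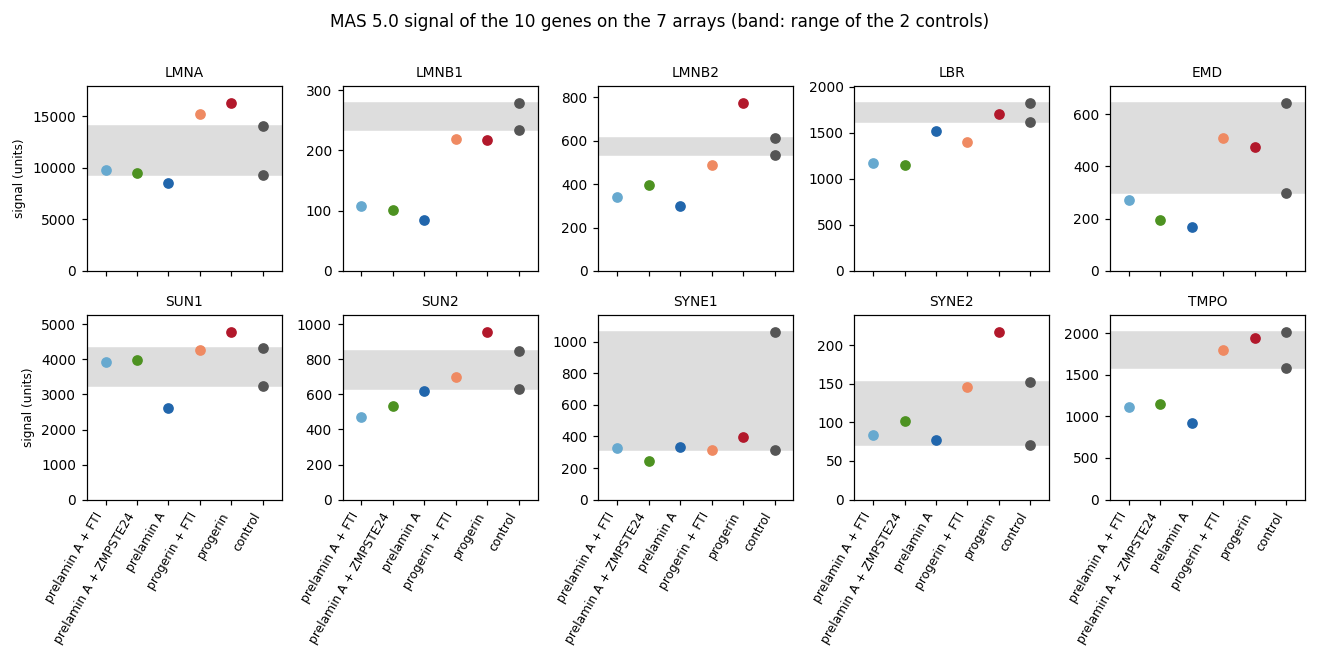
Signal of the 10 genes (vertical axis, MAS 5.0 units, linear from 0) by condition (horizontal axis), 1 point per array, with the range of the 2 control arrays as a grey band. For LMNB1, LMNB2, EMD, SUN2 and TMPO the 3 prelamin A arrays sit below the band and below both progerin arrays, while SYNE1 shows controls that are 3.27-fold apart. Of all genes, 22.7% had the prelamin A arrays below both controls and 24% had them below both progerin arrays.

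LMNB1 was the gene of the set that differed from control past the threshold. It encodes lamin B1, a B-type lamin that stays farnesylated and whose loss is known in senescent fibroblasts. Its only probe set gave 108, 101 and 84.0 units with prelamin A and FTI, prelamin A and ZMPSTE24, and prelamin A, against 219 and 218 units with progerin and FTI and with progerin, and 234 and 279 units on the controls. All 5 transduced arrays were below both controls, which LMNB1 alone of the 10 genes showed and which held for 12.3% of all genes. The prelamin A arrays were far below the other 4, and the progerin arrays were just under the lower control. The prelamin A line was lower than control by a log2 difference of -1.27 (SE 0.16, limma adjusted p = 0.0108), or 2.40-fold, with 2.48% of all genes called lower. The model of lines pools the arrays of a line over treatment. Its SE and p therefore hold differences between treatments and do not measure the spread between separate cultures of a line. Over the other settings tried the adjusted p ran from 0.00683 to 0.0583, and the highest came without control 2 (log2 difference -1.15). Between the lines LMNB1 was lower with prelamin A by -1.05 (SE 0.16, limma adjusted p = 0.177), which was not called. The progerin line lay -0.21 from control (95% interval -0.63 to 0.21), and 0 members were called in that comparison, against 1.05% of all genes.

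LMNA encodes lamins A and C, and progerin and prelamin A are both products of it. The leading LMNA probe set gave 9814, 9488 and 8498 units with prelamin A and FTI, prelamin A and ZMPSTE24, and prelamin A, against 15239.6 and 16289 units with progerin and FTI and with progerin, and 9300.25 and 14029 units on the controls. LMNA was the only member for which both progerin arrays were above both controls, as in 24.3% of all genes. The prelamin A arrays lay near control 1 and well below control 2. The progerin line minus control difference was 0.46 (95% interval -0.07 to 1.00) and the prelamin A line minus control difference was -0.30 (95% interval -0.79 to 0.18). Neither was called. The second of these was -0.60 without control 1 and -0.0079 without control 2. The prelamin A line minus progerin line difference was -0.77 (SE 0.20, limma adjusted p = 0.179).

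LMNA had 6 probe sets, and they did not all run the same way. The probe set 1554600_s_at gave 7175, 6230.3 and 6981 units with prelamin A and FTI, prelamin A and ZMPSTE24, and prelamin A, against 13009.7 and 13283 units with progerin and FTI and with progerin, and 7496 and 10863 units on the controls. The probe set 212086_x_at gave 5742, 4514 and 4589.9 units in the same order of prelamin A arrays, against 11357 and 10011 units with progerin and FTI and with progerin, and 6806 and 10059 units on the controls. The probe set 212089_at gave 1656, 1372 and 1309 units on the prelamin A arrays, against 2443 and 2459 units on the progerin arrays, and 2035 and 2263 units on the controls. In these 3 probe sets every prelamin A array was below both controls as well as below both progerin arrays. In a fit over all 41091 probe sets with 1 gene, the prelamin A line minus progerin line differences were -0.95, -1.11 and -0.76 for these 3, and -0.77 for the leading 203411_s_at. All 4 were under an unadjusted p of 0.05, but the limma adjusted p was 0.249 at the lowest, and 0% of all probe sets were called. The 2 dim probe sets went the other way. The probe set 214213_x_at gave 389, 193 and 387 units with prelamin A and FTI, prelamin A and ZMPSTE24, and prelamin A, against 108 and 229 units with progerin and FTI and with progerin, and 285 and 313 units on the controls, a line difference of 0.89 (unadjusted p = 0.0655). The probe set 244225_x_at stayed under 100 units on all 7 arrays, between 3.41 units with progerin and FTI and 61.7 units with prelamin A and FTI, with a line difference of 1.01 (unadjusted p = 0.0663). At a fold over 2 and an unadjusted p under 0.05, it was the only LMNA probe set called in any comparison, lower with progerin and FTI than with progerin by -1.51 (limma adjusted p = 1.00), where 1.76% of all probe sets were called lower. The call was lost under 6 of the settings tried, among them the filters at 100 units, which removed this probe set before the fit. Prelamin A overexpression was thus not seen at the 4 bright probe sets. The position of the probes on the transcript was not used here, so the cells' own LMNA transcript and the introduced one cannot be told apart.

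**Figure D2:**
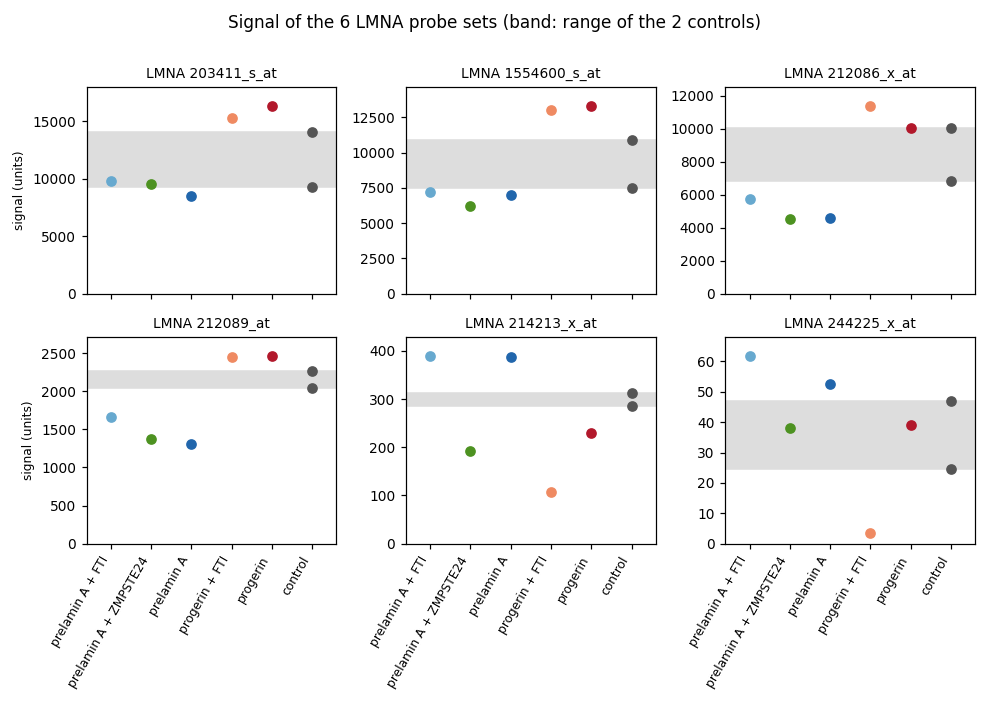
Signal of the 6 LMNA probe sets (vertical axes, MAS 5.0 units, linear from 0, each with its own range) by condition, 1 point per array, with the range of the 2 controls as a grey band. In the 4 bright probe sets the prelamin A arrays are below the progerin arrays, while in 214213_x_at the array with progerin and FTI is lowest at 108 units.

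LMNB2 encodes lamin B2, the second B-type lamin. It gave 342, 394 and 298 units with prelamin A and FTI, prelamin A and ZMPSTE24, and prelamin A, against 489.5 and 773 units with progerin and FTI and with progerin, and 535 and 612 units on the controls. The prelamin A arrays were again below all others, while the progerin arrays stood on either side of the controls. The prelamin A line differed from the progerin line by -0.82 (SE 0.23, limma adjusted p = 0.180) and from control by -0.71 (limma adjusted p = 0.119). The line difference was -0.49 without the progerin array and -1.14 without the array of progerin and FTI. At their leading probe sets all 3 lamin genes had their lowest signal on the prelamin A array, as did 16% of all genes. The LMNA probe sets 1554600_s_at and 212086_x_at were instead lowest with prelamin A and ZMPSTE24. The dim ones, 214213_x_at and 244225_x_at, were lowest with progerin and FTI.

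TMPO encodes the lamina-associated polypeptides 2, LEM domain proteins that bind lamins and the chromatin protein BAF. It gave 1114, 1146 and 925 units with prelamin A and FTI, prelamin A and ZMPSTE24, and prelamin A, against 1798 and 1944 units with progerin and FTI and with progerin, and 2018 and 1584 units on the controls. The groups did not overlap between the prelamin A arrays and the rest, and the progerin arrays lay within the range of the controls. The difference from the progerin line was -0.81 (SE 0.18, limma adjusted p = 0.177) and that from control -0.75 (SE 0.18, limma adjusted p = 0.0590). The difference from control fell just outside the threshold and passed it under 3 of the other settings. The other 3 TMPO probe sets over the minimum were lower in the prelamin A line than in the progerin line too, by -0.31 to -0.62, at unadjusted p between 0.0507 and 0.254.

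EMD encodes emerin, a LEM domain protein that is mutated in X-linked Emery-Dreifuss muscular dystrophy. It gave 272, 195 and 168 units with prelamin A and FTI, prelamin A and ZMPSTE24, and prelamin A, against 509.7 and 474 units with progerin and FTI and with progerin, and 299 and 643 units on the controls. The prelamin A arrays were below all others, but the controls were 2.10-fold apart and enclosed the progerin arrays. Its line difference of -1.18 (SE 0.34, 95% interval -2.00 to -0.36, limma adjusted p = 0.180) was the most negative of the 10 genes, and it lay -1.03 from control (limma adjusted p = 0.126). Against control 2 alone that difference was -1.56 and called at an adjusted p of 0.0355, and against control 1 alone it was -0.49 (limma adjusted p = 0.405).

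LBR encodes the lamin B receptor, which tethers heterochromatin to the inner membrane and is a sterol reductase. It gave 1171, 1145 and 1518 units with prelamin A and FTI, prelamin A and ZMPSTE24, and prelamin A, against 1400.85 and 1705 units with progerin and FTI and with progerin, and 1822 and 1615 units on the controls. Here the arrays overlapped between the lines, and both treated prelamin A arrays were lowest while the untreated one was higher. The line difference was -0.28 (95% interval -0.73 to 0.17), or -0.14 without the progerin array, and the prelamin A line minus control difference -0.43 (limma adjusted p = 0.205). LBR was among the 6 members, with LMNB1, LMNB2, EMD, SUN2 and TMPO, whose prelamin A arrays were all below both controls, as in 22.7% of all genes.

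SUN1 and SUN2 encode the inner membrane proteins that bind lamin A inside the nucleus and nesprins in the perinuclear space. SUN1 gave 3928, 3994 and 2599 units with prelamin A and FTI, prelamin A and ZMPSTE24, and prelamin A, against 4270.1 and 4792 units with progerin and FTI and with progerin, and 4326 and 3245 units on the controls. Only the untreated prelamin A array stood below the controls, and both treated prelamin A arrays lay between them. SUN2 gave 472, 532 and 617 units in the same order of prelamin A arrays, against 698 and 958 units with progerin and FTI and with progerin, and 632 and 845 units on the controls. In SUN2 all 3 prelamin A arrays were under both controls, with the untreated array highest among them. The line differences were -0.39 for SUN1 (95% interval -0.98 to 0.19) and -0.59 for SUN2 (95% interval -1.12 to -0.07, unadjusted p = 0.0327). Without the progerin array the SUN2 difference was -0.37, and without the prelamin A array the SUN1 difference was -0.19. The other 3 SUN1 probe sets were dim, at mean signals of 165 units or less, with line differences from -0.67 to 0.06. A further SUN1 probe set is shared with GET4 and was not counted.

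SYNE1 and SYNE2 encode nesprins, the giant outer membrane partners of the SUN proteins. The leading SYNE1 probe set gave 329, 244 and 334 units with prelamin A and FTI, prelamin A and ZMPSTE24, and prelamin A, against 315 and 395 units with progerin and FTI and with progerin, and 315 and 1064 units on the controls. Control 2 alone stood apart, and the other 6 arrays lay close together. The prelamin A line minus control difference was -0.92 with a 95% interval from -2.06 to 0.21, and it was -1.78 without control 1 (called, adjusted p = 0.0232) and -0.07 without control 2. SYNE2 gave 83.2, 101 and 77.5 units with prelamin A and FTI, prelamin A and ZMPSTE24, and prelamin A, against 146 and 217 units with progerin and FTI and with progerin, and 70.9 and 152 units on the controls. Its controls were 1.94-fold apart and enclosed all 3 prelamin A arrays. Its line difference was -0.92 (SE 0.31, unadjusted p = 0.0240), and its 4 other probe sets were below 100 units on all arrays. A second SYNE1 probe set, 232027_at, gave 141, 76.6 and 260 units with prelamin A and FTI, prelamin A and ZMPSTE24, and prelamin A, against 80.5 and 85.7 units with progerin and FTI and with progerin, and 221 and 214 units on the controls. It was called lower with progerin than in controls (log2 difference -1.20, limma adjusted p = 0.863) and lower with prelamin A and ZMPSTE24 than with prelamin A (-1.57, limma adjusted p = 0.913), where 2.39% and 3.11% of all probe sets were called lower. The SYNE1 probe set 215350_at was under 100 units on all 7 arrays, at 59.5, 50.7 and 62.2 units with prelamin A and FTI, prelamin A and ZMPSTE24, and prelamin A, against 23.7 and 1.16 units with progerin and FTI and with progerin, and 52.5 and 46.6 units on the controls. It was also called lower with progerin than in controls (-1.93, limma adjusted p = 0.863), and higher with progerin and FTI than with progerin (1.21, limma adjusted p = 1.00), where 1.09% of all probe sets were called higher. Its prelamin A line minus progerin line difference of 1.49 (limma adjusted p = 0.259) ran opposite to that of the leading probe set. The SYNE1 probe sets thus differed in their pattern among themselves.

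The plot of line differences sets the 3 comparisons side by side. The comparisons share arrays, so they are not independent of each other. Against control, the prelamin A line was below 0 for 10 of 10 genes with a median of -0.57, and the progerin line was above 0 for 7 of 10 with a median of 0.13. The medians over all genes were -0.03 and -0.00. At an unadjusted p under 0.05, 4 members (LMNB1, LMNB2, EMD and TMPO) were lower in the prelamin A line than in controls, against 13.4% of all genes, and 0 members differed in either direction in the progerin line, against 8.42% higher and 6.94% lower.

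**Figure D3:**
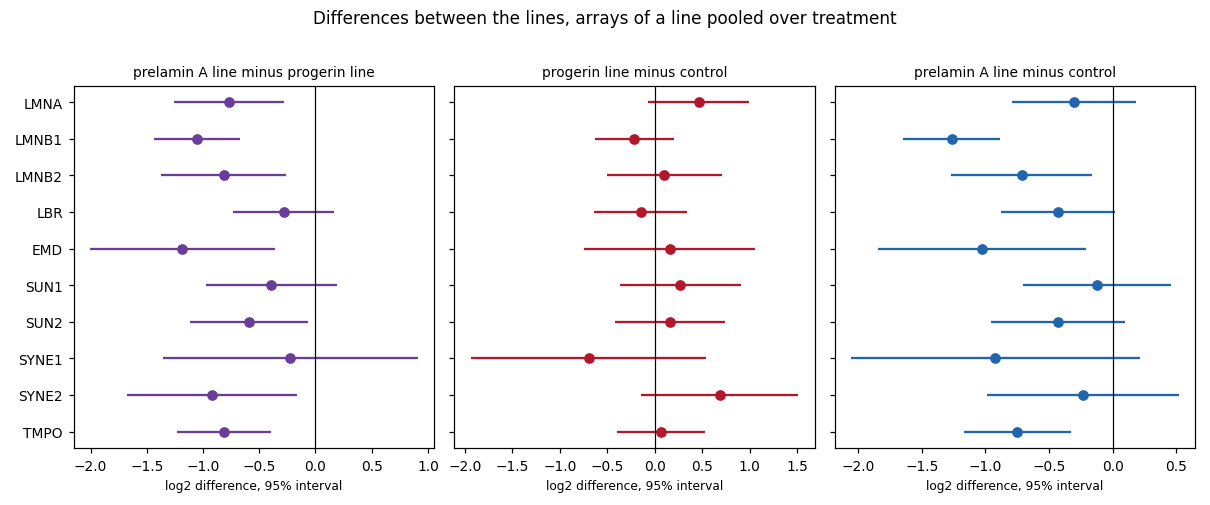
Log2 differences of the 10 genes (points) with 95% intervals from limma (lines) for the prelamin A line minus the progerin line, the progerin line minus control and the prelamin A line minus control. The 10 points of the first panel lie between -1.18 and -0.23, and in the third panel LMNB1 is at -1.27.

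**Figure D4:**
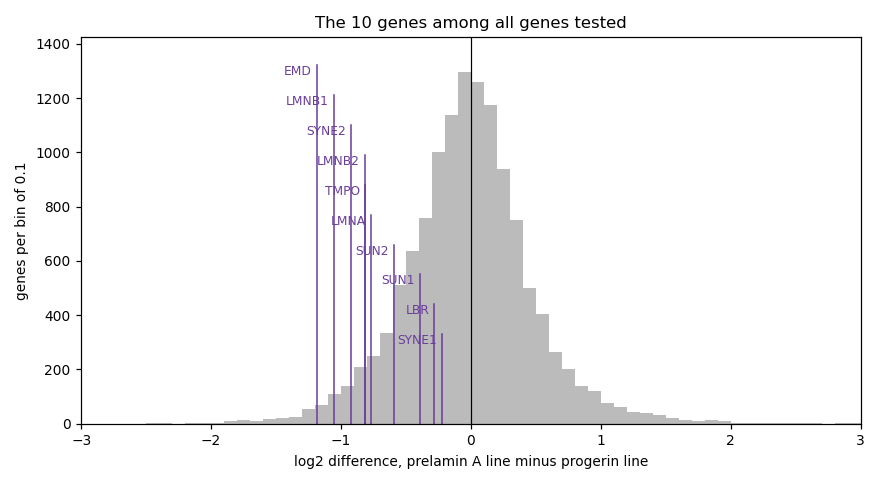
Number of genes (vertical axis) by log2 difference between the prelamin A line and the progerin line (horizontal axis, bins of 0.1) for the 12726 genes tested, with the 10 genes of the set as vertical lines whose heights only separate the labels. The 10 genes lie left of 0, from -1.18 for EMD to -0.23 for SYNE1, while the median of all genes is -0.02.

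The comparison of single conditions asked which genes changed with either protein. Here the spread came from the 2 controls alone, and a gene was called at a fold over 2 and an unadjusted p under 0.05 in limma. With prelamin A, LMNB1 was lower than in controls by -1.44 (SE 0.33, unadjusted p = 0.0096, adjusted p = 0.240) and was the 1 member called, where 4.02% of all genes were called lower and 6.29% higher. LMNB2 at -0.91 (limma adjusted p = 0.405) and TMPO at -0.94 (limma adjusted p = 0.415) were under an unadjusted p of 0.05 but did not reach 2-fold, and EMD at -1.31 (limma adjusted p = 0.463) passed 2-fold but not the p. All 10 genes were below 0, with a median of -0.65. The prelamin A array was the lowest of the 7 for 6 members (LMNA, LMNB1, LMNB2, EMD, SUN1 and TMPO), as it was for 16% of all genes. With progerin 0 members were called, against 3.76% of all genes higher and 2.04% lower. The members ran from -0.54 for SYNE1 to 0.95 for SYNE2 (limma adjusted p = 0.892).

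Treatment with FTI or ZMPSTE24 was used to ask which changes return towards control. No member was called after any of the 3 treatments, against 2.81% of all genes with FTI in the prelamin A line, 5.04% with ZMPSTE24 and 1.45% with FTI in the progerin line. In the prelamin A line 7 of 10 genes were above 0 with FTI (median 0.20) and 7 of 10 with ZMPSTE24 (median 0.21). Of all genes, 48.3% and 47.6% were above 0. Both comparisons subtract the same prelamin A array, which was the lowest of the 7 arrays for 6 members. For those 6 the positive sign was thus fixed in both, and the counts are not read as a return towards control. The largest differences in the prelamin A line were 0.65 for EMD (95% interval -1.01 to 2.30) and 0.59 for SUN1 (95% interval -0.52 to 1.70) with FTI, and 0.62 for SUN1 (95% interval -0.49 to 1.73) with ZMPSTE24. LBR, SUN2 and SYNE1 were below 0 in all 3 comparisons. LMNB1 stayed below both controls on both treated prelamin A arrays, with differences of 0.31 (95% interval -0.72 to 1.33) with FTI and 0.22 (95% interval -0.80 to 1.25) with ZMPSTE24. In the progerin line 8 of 10 genes were below 0 with FTI (median -0.22), beside 51.8% of all genes, and LMNB2 lay farthest at -0.64 (95% interval -1.65 to 0.37). The progerin array was the highest of the 7 for LMNA, LMNB2, SUN1, SUN2 and SYNE2. For those genes the negative sign was fixed, and the count is not read as a response to FTI. The FTI difference in the prelamin A line minus that in the progerin line was above 0 for 9 of 10 genes (median 0.34), beside 50.1% of all genes. It too subtracts the same prelamin A array, and it adds the same progerin array. The positive sign was thus fixed for LMNA, LMNB2 and SUN1, and the count is not read as a difference in response. In this comparison 0 members were called against 1.84% of all genes, and LMNB2 was farthest from 0 at 0.83 (95% interval -0.60 to 2.26). The intervals span more than 2-fold in either direction for several genes, so effects of that size were not detectable here. In a model of 3 states (untreated lamin-expressing, treated and control), 0 members were called in any comparison, where 0.558% of all genes were called for lamin-expressing against control, 1.08% for treated against control and 0% for treated against lamin-expressing.

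**Figure D5:**
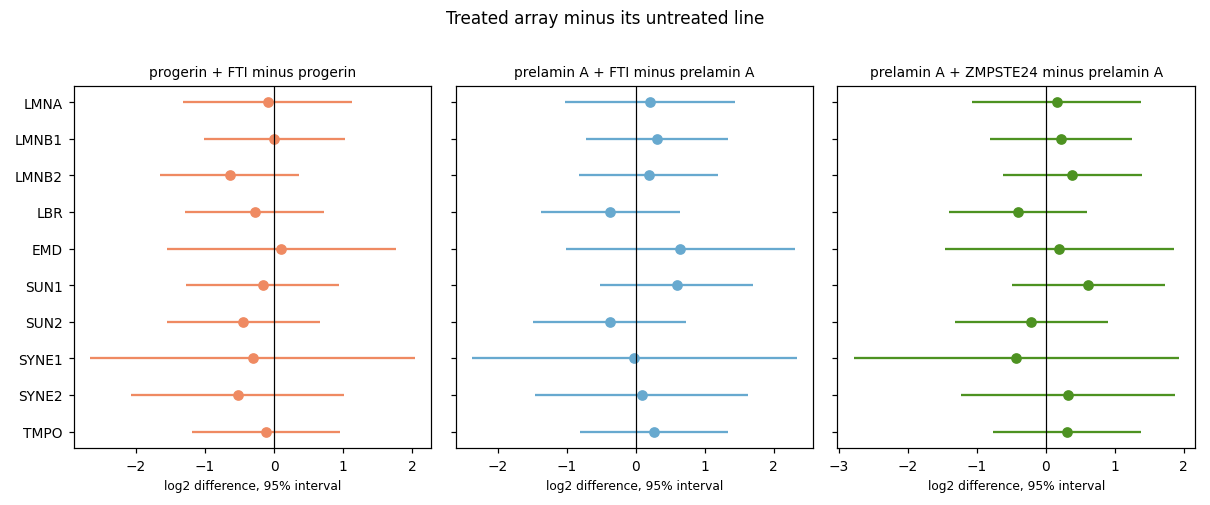
Log2 differences of the 10 genes (points) with 95% intervals from limma (lines) for each treated array minus its untreated line. Every interval includes 0, and the points run from -0.64 for LMNB2 with FTI in the progerin line to 0.65 for EMD with FTI in the prelamin A line.

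The controls set the limit for several genes. Control 1 minus control 2 was -1.71 for SYNE1 and -1.07 for EMD, the 2 members over 2-fold, and 9.28% of all genes were over 2-fold between the controls. It was -0.95 for SYNE2 and -0.59 for LMNA, and between -0.41 and 0.41 for the other 6. LMNB1, LBR and LMNB2 were closest between the controls, at -0.24, 0.17 and -0.19.

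Other genes of the nuclear envelope were examined as lists. Of 19 tested genes for other nuclear envelope proteins and lamina partners, 0 were called between the lines (median -0.08), and 2 were called lower in the prelamin A line than in controls, beside 2.48% of all genes: ANKLE2, which helps BAF to reassemble the envelope after mitosis, at -0.74 (limma adjusted p = 0.0339), and PRR14, which tethers heterochromatin to the lamina, at -1.13 (limma adjusted p = 0.0485). Of 29 nuclear pore genes, 0 were called between the lines (median -0.05), and 1, the scaffold component SEC13, was called lower in the prelamin A line than in controls at -0.65 (limma adjusted p = 0.0452), a share near the 2.48% of all genes. SEC13 gave 5059, 5661 and 5309.6 units with prelamin A and FTI, prelamin A and ZMPSTE24, and prelamin A, 5249 and 4712 units with progerin and FTI and with progerin, and 8388 and 8385 units on the controls. ANKLE2 was also low on the progerin arrays, at 968 and 909 units with progerin and FTI and with progerin, against 1489 and 1374 units on the controls. Its prelamin A line minus progerin line difference was -0.14. SUN5, a SUN protein of the testis, was called higher with progerin and FTI than with progerin, at 179 units against 41.6 units (1.76, limma adjusted p = 1.00), where 0.503% of all genes were called higher, and its controls were at 151 and 60.4 units. The 19 genes had a median of -0.00 and the 29 genes a median of -0.19 in the prelamin A line against control, beside -0.03 for all genes.

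Of the 6 enzymes that process prelamin A, FNTB, the beta subunit of farnesyltransferase, is given as values only. It gave 50.1, 34.9 and 51.5 units with prelamin A and FTI, prelamin A and ZMPSTE24, and prelamin A, and 60.9 and 46.6 units with progerin and FTI and with progerin, against 147 and 104 units on the controls. FNTB reached the minimum of 100 units only on the controls and so entered the fit only through them, and no call is read from its differences. The other 5 enzymes were not called in any comparison. ZMPSTE24 gave 5180.1, 5779 and 6119.5 units with prelamin A and FTI, prelamin A and ZMPSTE24, and prelamin A, 5195 and 5073 units on the progerin arrays, and 4841 and 4973 units on the controls. The array labelled with ZMPSTE24 overexpression was thus not above the prelamin A array (log2 difference -0.08). The position of the ZMPSTE24 probes was not checked, so whether they read the introduced transcript is not known.

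Cell cycle genes had differences of the same direction between the lines. Of 25 genes, 23 lay below 0 for the prelamin A line minus the progerin line, with a median of -0.64 and 0 called, beside 52% of all genes below 0. AURKB, a mitotic kinase, gave 232, 209.6 and 179.7 units with prelamin A and FTI, prelamin A and ZMPSTE24, and prelamin A, against 321 and 342 units on the progerin arrays, and 338 and 428 units on the controls, and was called lower in the prelamin A line than in controls at -0.84 (limma adjusted p = 0.0445), the 1 called of 25 where 2.48% of all genes were. With prelamin A alone, AURKB at -1.02, FOXM1 at -1.12 and CDC45 at -2.08 were called lower than controls, 3 of 25 where 4.02% of all genes were (limma adjusted p = 0.173 at the lowest). CDC45, a replication factor, gave 152 units with prelamin A and ZMPSTE24, against 36.0 units with prelamin A, and was called higher there (1.69, limma adjusted p = 0.735), where 2.18% of all genes were called higher. With prelamin A and FTI it went the other way, at 11.3 units (log2 difference -0.93 from prelamin A), and this and the prelamin A signal were under 100 units. The part of the cell cycle genes in the lower signals of LMNB1 and TMPO was not tested.

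By the root mean square difference of centred log2 profiles over the 7 arrays, the members most alike were LMNA and SYNE2 (0.190) and LMNB2 and TMPO (0.206). Among all genes tested, the 5 whose profile was most like LMNA were C1QBP (0.0735), SF3B4 (0.0776), PKM (0.0805), AKT2 (0.0821) and RAPGEF1 (0.0823). For LMNB1 they were RAB3D (0.107), GTF2I (0.136), MOGS (0.141), FUZ (0.145) and GPI (0.149). PKM, the muscle-type pyruvate kinase, gave 10739.6, 9058 and 9011 units with prelamin A and FTI, prelamin A and ZMPSTE24, and prelamin A, against 15015 and 15916 units on the progerin arrays, and 9547 and 15690.3 units on the controls, the same high control 2 and low control 1 as LMNA. These values are a description over 7 arrays that share their scaling.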

How the data were processed

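The authors deposited intensity values in 1 table, unlogged, with a MAS 5.0 signal for each probe set on each of 7 arrays. Per the study's methods the software corrected background, summarised probes and scaled each array to a common target, and the submitters' processing notes give no version. Probe-level values and detection calls were not used here, so the S-score test of the methods was left out, and precision is limited by the number of arrays. In the platform annotation 41091 of 54675 probe sets carried a single gene, 1801 carried several and 11721 carried none, with 62 array controls. Of those with a single gene, 41037 matched the RefSeq table of GRCh38.p14, the source of symbols and coordinates. Probe sets that reached 100 units on 1 array or more entered the fit, the brightest for each gene, leaving 12726 genes.

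The value fitted was log2(signal + 16), with limma 3.58.1 in R 4.3.3 across all genes and Benjamini-Hochberg adjustment. Residual and prior degrees of freedom were 1 and 3.50 for 6 conditions, 4 and 2.51 for 3 lines, and 4 and 2.60 for 3 states. LMNA probe sets were also fitted over all 41091 probe sets without a filter. In the models of lines and states a gene was called at an adjusted p under 0.05. The fits were also run on simulated arrays with known changes, larger than the member differences of the main fits, and with no treatment effect within a line. That run does not show how the fits treat smaller changes or pooled treatments. The alternatives covered normalization (quantile, median centring), the pseudocount (1 or 64), the filter (none, or a mean of 100 units or more), every probe set, an intensity trend, and each array left out in turn. Counts at an unadjusted p and of groups that do not overlap were added later. Named genes were all 10 members, the 5 genes most like LMNA and LMNB1, members of the envelope, pore, processing and cell cycle lists that were called (at most 4 a list and comparison), ZMPSTE24, and markers. The members, lists and tests were chosen with earlier results of these data known.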

Additional observations from a re-analysis of the deposited data

How the results depend on the processing

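The line difference between prelamin A and progerin kept its sign for all 10 genes under all 15 alternatives, with 0 members called in each. The sign was largely fixed in advance. The filters, every probe set, the intensity trend and leaving out a control do not change the values that this difference compares. In 8 members all prelamin A arrays were below both progerin arrays. There another pseudocount or leaving out any single array could not turn the sign either. The count at an unadjusted p under 0.05 was 4 to 7 when single arrays were left out, lowest without the progerin array. For the prelamin A line against control, the members called were 2 with a pseudocount of 64, with the filter on the mean signal and with an intensity trend, since TMPO joined LMNB1. They were 0 (without control 2, where 215 genes were called in place of 799) to 3 (without control 1, with EMD and SYNE1) when single arrays were left out. For prelamin A against control they were 2 with a pseudocount of 64 and with an intensity trend, which added EMD. The 1 called LMNA probe set, with FTI in the progerin line, came to 0 with quantile normalization, median centring, a pseudocount of 64, either filter on dim probe sets or an intensity trend. The filters removed that probe set before the fit, so its loss there was fixed in advance.

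Some differences from control turned sign when an array was left out, and the cause was not tested. Progerin minus control ran from -0.096 to 0.077 for LBR, -0.43 to 0.64 for EMD, -1.39 to 0.31 for SYNE1 and -0.053 to 0.29 for TMPO. Prelamin A minus control ran from -1.63 to 0.080 for SYNE1 and -0.85 to 0.11 for SYNE2. The prelamin A line minus control ran from -0.33 to 0.085 for SUN1, positive without control 1 or without the prelamin A array (0.080), and from -0.71 to 0.24 for SYNE2. In the other cases the sign turned without control 1 for LBR and EMD and without control 2 for SYNE1, SYNE2 and TMPO. Without a control the model of 6 conditions has no residual degrees of freedom and gives values with no test. With 1 array per condition, the lone array is assumed to vary like the controls. No paired analysis was possible because only the controls have replicate numbers and each other group has 1 array.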
